A study of Rattus norvegicus with 12 samples.

Results

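The calcium/calmodulin-dependent kinases were examined in cultures enriched in neurons, prepared from newborn rat cerebellum and measured with 1-colour oligonucleotide arrays. They were the 10 genes Camk1, Camk1d, Camk1g, Camk2a, Camk2b, Camk2d, Camk2g, Camk4, Camkk1 and Camkk2, and they were found by their gene symbol in the annotation of the array. This gave 10 of 26214 gene names and 14 of 30367 probes on the array: 6 genes had 1 probe and 4 genes had 2. Of the 14 probes, 13 passed the filter on dim signal and were tested.

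Cultures came from Sprague-Dawley rats that were 1 day old, and the cultures stayed a mixture of cells. All received the solvent dimethyl sulfoxide. The 6 control cultures received nothing else, and the 6 cultures of the acetamiprid (ACE) group were exposed to 1 µM of this neonicotinoid insecticide from day 2 to day 16 in vitro, when RNA was taken. According to the methods, the cultures of an experiment came from the same lot of cerebellar cells, pooled from the pups of a single litter. The replicate number was taken to mark that lot, so the comparison of control versus ACE (CvA) was made within 6 pairs. Arrays for nicotine or imidacloprid were not analysed here.

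These kinases read calcium entry into neurons. Calcium bound to calmodulin opens their catalytic site, and the family is usually divided into the multimeric kinase II, with its alpha, beta, gamma and delta subunits, and a cascade in which the kinase kinases (Camkk1, Camkk2) phosphorylate kinase I (Camk1 and its relatives) and kinase IV (Camk4). Kinase II is best known for its part in synaptic plasticity. In the cerebellum, granule cells are known for kinase IV, and the beta subunit of kinase II is prominent in both granule and Purkinje cells.

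The probes are shown for the kinase II subunits and for Camkk2, because their sequence sets what a signal can stand for. Each probe had 60 bases, and positions are those of the array annotation on the rat build rn4. The brighter Camk2b probe and the Camk2g probe lay over homologous stretches: when shifted by 4 bases, 45 of 56 aligned bases were equal, and the capitals mark their longest shared run of 14 bases. No other pair of member probes of different genes shared a run of more than 9 bases.
Camk2b (main probe, chr14:86635462-86635521, minus strand): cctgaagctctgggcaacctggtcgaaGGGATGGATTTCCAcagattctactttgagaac
Camk2g (chr15:3783656-3785221, plus strand): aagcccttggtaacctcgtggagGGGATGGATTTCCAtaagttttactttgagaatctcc
Camk2b (other probe, chr14:86645232-86645447, minus strand): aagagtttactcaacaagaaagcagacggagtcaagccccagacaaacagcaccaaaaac
Camk2a (chr18:56903621-56918266, plus strand): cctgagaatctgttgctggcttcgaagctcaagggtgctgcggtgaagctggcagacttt
Camkk2 (chr12:34930464-34934857, plus strand): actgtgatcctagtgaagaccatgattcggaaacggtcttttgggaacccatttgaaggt
The positions of the Camk2a, Camk2g, Camkk2 and the other Camk2b probe run over more genome than the probe has bases, so these probes crossed at least 1 intron and lay in spliced exon sequence. Exon numbers were not analysed here.

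Over the whole array, signal was well above background for 75.4 to 91.0% of gene spots, and replicate 1 was read with another version of the scan software than the other 10 arrays. Control lay at one place and ACE at another on every slide, so exposure and place cannot be told apart. Defining markers of the cerebellum were present: 8 of 8 Purkinje cell genes, 7 of 9 granule cell genes and 7 of 8 pan-neuronal genes on the array were well above background on all 12 arrays, as were 7 of 7 astrocyte, 7 of 7 oligodendrocyte and 6 of 6 microglia genes. Skeletal muscle genes were also present (11 of 14), and the log2 of their summed signal ranged from 14.80 to 17.19 in control and from 14.99 to 16.07 in ACE. Of these 14 genes, 14 had a lower mean in ACE, where 52.2% of all probes did, with a median difference of -0.86 log2. The median was -0.42, with 12 lower, when replicate 2 was left out, an alternative chosen after seeing the data. Actc1, Des, Mb, Myog and Tnni2 were lower in 6 of 6 pairs (exact signed-rank p 0.0313 each, adjusted limma p not under 0.05). Of all probes, 6.86% were lower with an exact signed-rank p under 0.05. The smallest pair differences were -0.011 for Actc1, -0.019 for Des, -0.030 for Tnni2, -0.15 for Myog and -0.28 for Mb. The study reported these same genes as lower with ACE from the same arrays, so their p-values are not independent support. The sum over the 14 muscle genes was lower in ACE in pairs 1, 2, 5 and 6 (by up to -1.12 log2, in pair 2). It was higher in pairs 3 and 4 (0.075 and 0.20). In pairs 3 to 5 this sum was mostly the signal of a single gene, Myh8. Myh8 was at 14.68, 14.51 and 15.81 log2 in control and at 14.80, 14.75 and 15.31 in ACE in these pairs. The sum therefore did not follow the other muscle genes there. The summed signal of the inhibitory neuron markers lay above control in 5 of 6 ACE arrays (0.65, 0.38, 0.12, 0.17 and 0.072 in pairs 1 to 5, and -0.13 in pair 6), and that of the astrocyte markers was lower in 6 of 6 pairs, with pair differences from -0.071 to -0.031. Several of the kinases are expressed in muscle and glia as well as in neurons, and the part of these cells in the kinase signals was not tested. In such mixed cultures fewer cells of a type and less RNA per cell cannot be told apart.

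The CvA comparison asked whether the mRNA of these kinases differed after 2 weeks with ACE. No kinase passed any of the tests over the 6 pairs. In the paired limma fit, 0 of 13 member probes passed at an adjusted p under 0.05 (lowest adjusted p 0.465), where 0% of all 23796 probes did, and 0 of 13 had an unadjusted p under 0.05, where 16.6% of all probes did. By the exact signed-rank test over pairs, 0 of 13 probes had an unadjusted p under 0.05, against 11.6% of all probes. Of the 13, 0 differed 1.5-fold or more on average (1.72% of all probes), the largest mean change being 1.16-fold for Camkk2, a dim probe whose value depended on the processing. The median size of the difference was 0.030 log2 over the 13 probes and 0.062 log2 over all probes. The pairs of the 13 probes varied more, with a median SD of the pair differences of 0.169 log2 against 0.125 over all probes. The 13 probes comprised 5 with a higher and 8 with a lower mean in ACE (47.8% and 52.2% of all probes). The ranges of control and ACE were apart for 0 of 13 probes, and for 0.0126% of all probes.

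How closely a change was bounded differed between genes. For 11 of 13 probes the 95% interval of the difference lay within a 1.5-fold change either way (88.9% of all probes), and for 8 of 13 it lay within 1.2-fold (65.9% of all probes). The 2 probes with an interval reaching past 1.5-fold were those of Camk2a and Camkk2, which were also the only tested ones not well above background on all 12 arrays.

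**Figure D1:**
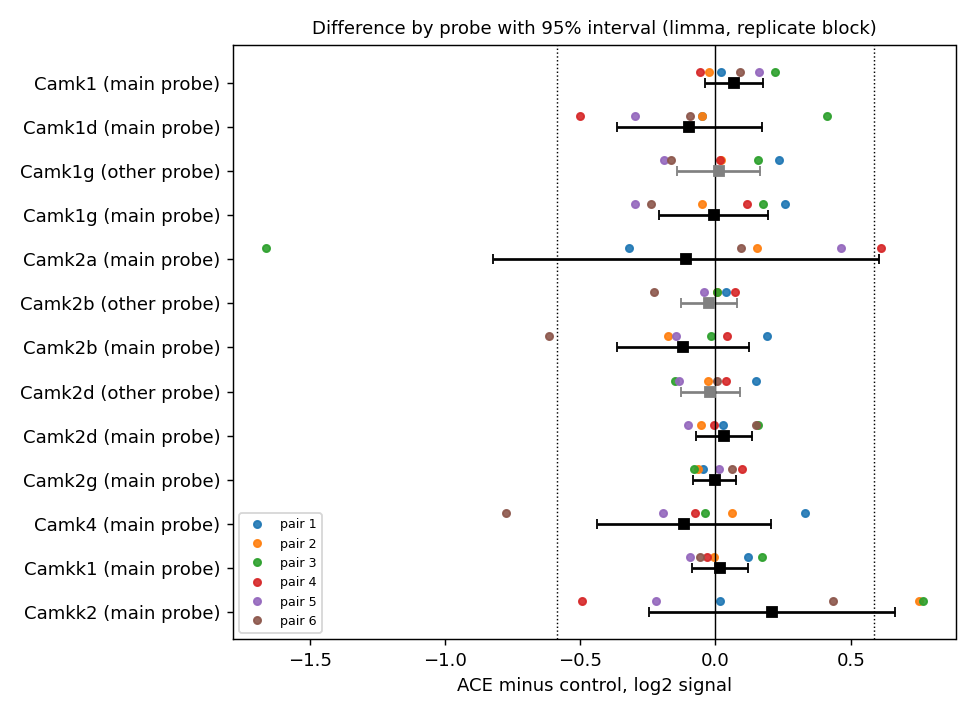
Difference between ACE and control for the 13 tested probes on the log2 scale (x axis), with the mean and its 95% interval from limma as squares and bars (black for the main probe of a gene, grey for its other probe) and the 6 pairs as coloured points. All intervals include 0, and only those of Camk2a and Camkk2 cross a dotted line, which marks a 1.5-fold change.

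Among the subunits of kinase II, Camk2g had the tightest pairs. Its log2 signal had a lowest value of 10.43, a median of 11.32 and a highest value of 11.83 in control, and 10.50, 11.33 and 11.79 in ACE. The same replicates were high and low in both groups, with replicate 1 highest and replicate 6 lowest. The difference was -0.0032 ± 0.033 log2 (SE, n = 6 pairs), with an adjusted limma p of 0.969 and a 95% interval from -0.083 to 0.076, and the pair differences ran from -0.080 to 0.099. A mean this small was within its error, and with the values as normalised by the authors it was 0.010.

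Camk2d, which codes for the delta subunit known from heart and smooth muscle as well as brain, was measured by 2 probes. The signal of its main probe was 8.03 at the lowest, 8.47 at the median and 8.84 at the highest in control, and 8.06, 8.63 and 8.79 in ACE. The difference was 0.030 ± 0.043 log2 (SE, adjusted limma p 0.743), and it was -0.020 ± 0.045 for the other probe (adjusted limma p 0.845). The 2 probes thus had opposite signs, both within their error, and both were higher in ACE than in control in 3 of 6 pairs. When arrays were scaled by their 75th percentile instead of quantile normalisation, the main probe was at -0.00091 and the other probe at -0.082.

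The beta subunit, Camk2b, also had 2 probes. The main probe gave 7.95, 8.58 and 8.64 in control (lowest, median, highest) and 8.02, 8.27 and 8.68 in ACE. It was lower in ACE in 4 of 6 pairs, by -0.12 ± 0.10 log2 on average (SE, adjusted limma p 0.570). Most of this came from replicate 6, where the ACE array was 0.62 log2 below its control (pair difference -0.62), and without replicate 6 the mean was -0.021, while it was -0.18 without replicate 1. The other probe gave 7.11, 7.28 and 7.56 in control and 6.97, 7.28 and 7.64 in ACE. Its difference was -0.025 ± 0.043 log2 (SE, adjusted limma p 0.795), and replicate 6 also had its lowest pair difference (-0.23). With 75th percentile scaling the main probe was at -0.16 and the other probe at -0.095.

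Camk2a, the alpha subunit of forebrain synapses, gave a dim signal that was well above background on 5 of 6 control and 6 of 6 ACE arrays. In control it was 4.54 at the lowest, 4.90 at the median and 6.50 at the highest, and in ACE 4.74, 5.02 and 5.31. The high value was control replicate 3, whose pair difference was -1.66, while 4 of 6 pairs were higher in ACE. The mean difference was -0.11 ± 0.30 log2 (SE, adjusted limma p 0.874). It was 0.20 without replicate 3 and -0.22 with 75th percentile scaling. Within the 3 pairs that shared a scan day (replicates 4 to 6) the difference was 0.39 log2, where limma gave an unadjusted p of 0.0477 and an adjusted p of 0.358. Each other scan day held a single pair.

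In the cascade of kinases I and IV, Camk4 is the nuclear kinase that phosphorylates the transcription factor CREB. Its signal was 6.84 at the lowest, 7.73 at the median and 8.06 at the highest in control, and 6.80, 7.45 and 7.84 in ACE. The difference was -0.12 ± 0.13 log2 (SE), lower in 4 of 6 pairs, with an adjusted limma p of 0.685. With 75th percentile scaling it was -0.18. As for Camk2b, the lowest pair difference was that of replicate 6 (-0.78), and without this replicate the mean was 0.017, while it was -0.20 without replicate 1. In that pair the summed signal differed by 0.0061 log2 for the granule cell, 0.11 for the Purkinje cell, -0.13 for the inhibitory neuron and -0.17 for the pan-neuronal markers. It differed by -0.055 for the astrocyte, 0.077 for the oligodendrocyte, 0.041 for the microglia, -0.30 for the meningeal fibroblast and -0.64 for the skeletal muscle markers. The part of these cells in the low Camk4 and Camk2b values was not tested.

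Camk1, the ubiquitous kinase I, had the lowest unadjusted p of the 13 probes. It was 8.21, 8.60 and 8.78 in control (lowest, median, highest) and 8.15, 8.63 and 8.93 in ACE. The ACE array was higher in 4 of 6 pairs, and the difference was 0.069 ± 0.044 log2 (SE), for which limma gave an unadjusted p of 0.167 and an adjusted p of 0.465. The difference was 0.038 without replicate 3 and 0.039 with 75th percentile scaling. Camk1d, the delta form of kinase I, was 6.63, 7.24 and 7.76 in control and 6.91, 7.15 and 7.26 in ACE. It was lower in ACE in 5 of 6 pairs, by -0.097 ± 0.11 log2 on average (SE, adjusted limma p 0.681), and the exception was replicate 3 (pair difference 0.41). The mean depended on single pairs: it was -0.20 without replicate 3, -0.057 without replicate 5 and -0.016 without replicate 4, and 75th percentile scaling gave -0.16. The control arrays spread more widely than the ACE arrays for this gene (SD 0.39 against 0.12 log2, n = 6 each), a difference in spread that was not tested.

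Camk1g, the membrane-anchored gamma form that is largely a brain kinase, was measured by 2 probes that moved together. The main probe gave 10.12, 11.28 and 11.99 in control and 10.38, 11.32 and 11.75 in ACE. The difference was -0.0067 ± 0.084 log2 (SE, adjusted limma p 0.975), and it was 0.013 ± 0.064 for the other probe (adjusted limma p 0.937). For both probes, replicates 1, 3 and 4 were higher and replicates 5 and 6 lower in ACE. The directions of both means changed between alternatives.

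**Figure D2:**
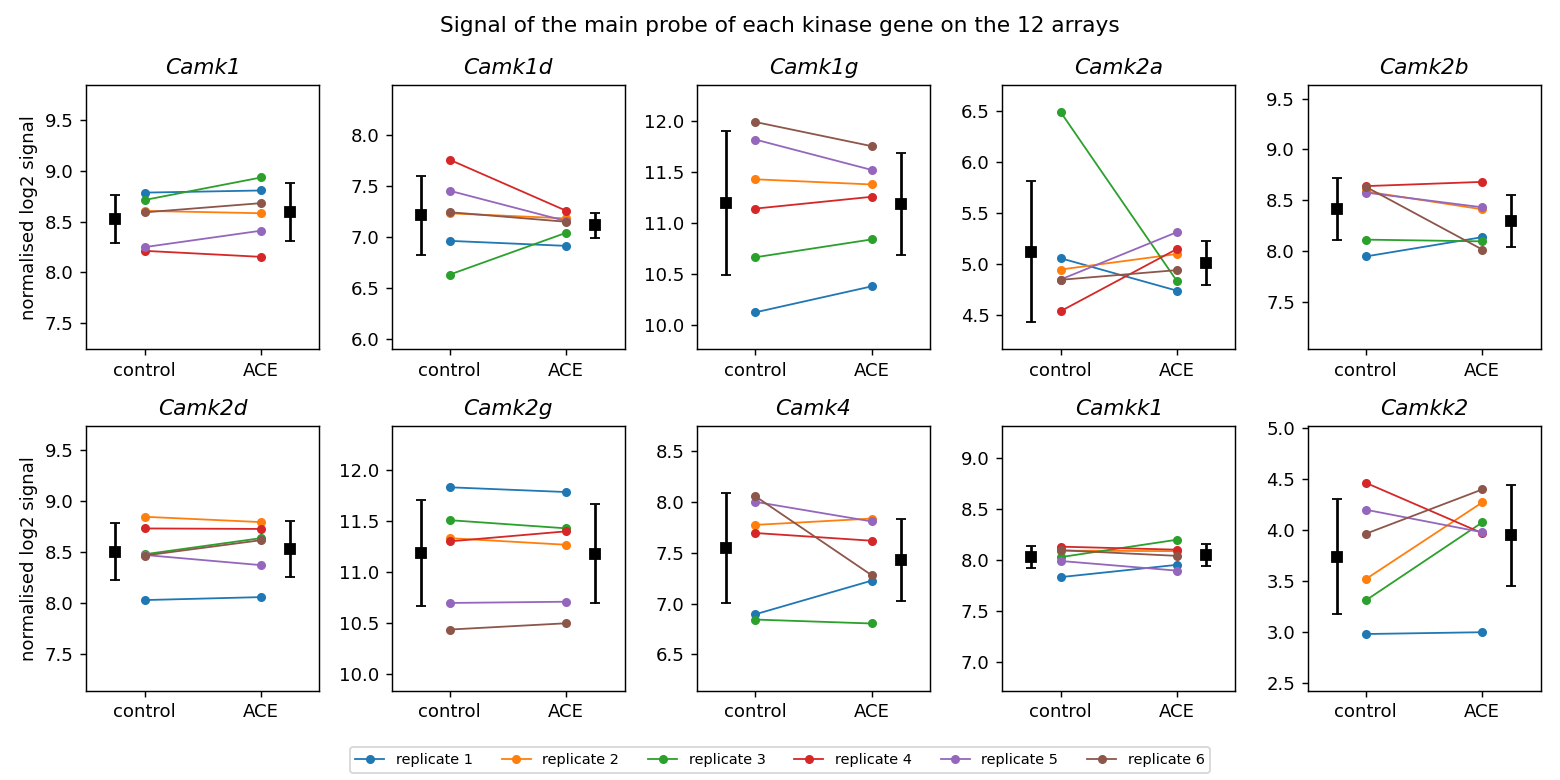
Normalised log2 signal (y axis, each panel spanning the same range) of the main probe of the 10 genes in control and ACE, with the arrays of a replicate number joined by a line and the mean ± SD of each group as black squares with bars (n = 6 arrays). The pair lines of Camk2g have the smallest slopes relative to the gaps between replicates, and Camk2a shows the single high array of control replicate 3.

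The kinase kinases stand upstream of kinases I and IV. Camkk1 varied least among the main probes: it was 7.83, 8.06 and 8.13 in control and 7.90, 8.06 and 8.20 in ACE, with a difference of 0.018 ± 0.043 log2 (SE, adjusted limma p 0.855). A second Camkk1 probe was well above background on 2 of 6 arrays in each group, did not pass the filter and was not tested. Its signal ranged from 2.52 to 3.71 in control and from 2.47 to 3.99 in ACE. The direction of the Camkk1 difference was the opposite with 75th percentile scaling (-0.027) and after normexp background correction (-0.014).

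Camkk2, which also activates the energy sensor AMP-activated kinase, was dim, with signal well above background on 2 of 6 control and 4 of 6 ACE arrays. It was 2.98, 3.74 and 4.47 in control and 2.997, 4.03 and 4.40 in ACE. The difference was 0.21 ± 0.19 log2 (SE), higher in 4 of 6 pairs, with an adjusted limma p of 0.597 and a 95% interval from -0.24 to 0.66. Replicates 2 and 3 gave the highest pair differences (0.75 and 0.77) and replicate 4 the lowest (-0.50). In the 3 pairs that shared a scan day the mean was -0.094. It was 0.073 with 75th percentile scaling, 0.010 after normexp background correction, 0.10 without replicate 2, 0.098 without replicate 3 and 0.35 without replicate 4.

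Several kinases differed between the culture lots. In the same limma fit, the replicate number was tested as a factor, a test chosen after the values had been seen: 7 of 13 probes were past the adjusted threshold, a smaller share than the 83.9% of all probes. The mean of a pair ranged by 0.22 log2 over the lots for the main Camkk1 probe and by 1.63 log2 for the main Camk1g probe. The replicate number stood for the lot, the slide and in part the scan day at once, which cannot be told apart.

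The lots did not move all kinases the same way. For Camk1g the pair mean was lowest in replicate 1 (10.25 log2) and highest in replicate 6 (11.87), with an adjusted limma p of 0.000539 for the lot. For Camk2g it was highest in replicate 1 (11.81) and lowest in replicate 6 (10.46), with an adjusted limma p of 4.01e-05. These 2 genes therefore ran in opposite directions between the same lots. Among the pairs of these 2 genes, the widest gap between an exposed array and its control was that of Camk1g in replicate 5 (pair difference -0.30). Camk4 was low in replicates 1 and 3 (7.06 and 6.82) and lay between 7.66 and 7.90 in the other 4, with an adjusted limma p of 0.0184. Camk1 was lowest in replicate 4 (8.18) and highest in replicate 3 (8.82), and Camk2d was lowest in replicate 1 (8.04) and highest in replicate 2 (8.82), with adjusted limma p-values for the lot of 0.00136 and 0.000917. The latter holds for the main Camk2d probe, while its other probe had a range of 0.25 log2 over the lots and an adjusted limma p of 0.108. For Camk2b it was the other probe that passed (adjusted limma p 0.00390). Camk1d, Camk2a, Camkk1, Camkk2, the main Camk2b probe and the other Camk2d probe were not past the adjusted threshold for the lot (adjusted limma p from 0.0635 to 0.643).

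**Figure D3:**
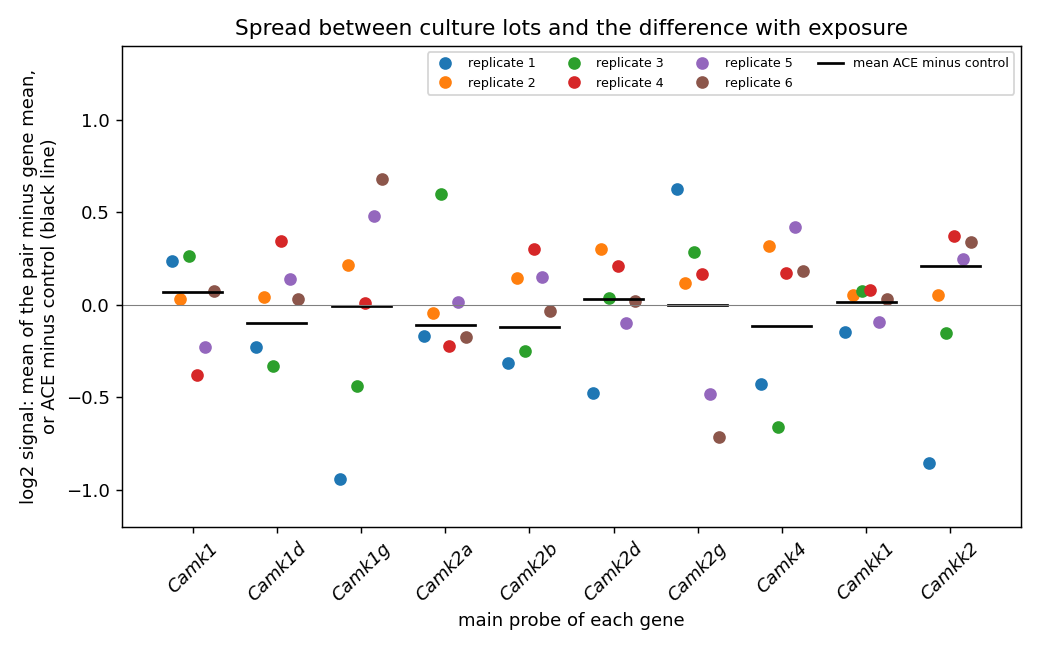
Mean log2 signal of the control and ACE array of each replicate number, centred on the mean of the gene (coloured points), beside the mean difference between ACE and control (black line) for the main probe of the 10 genes. Replicate 1 lies at the bottom for Camk1g and at the top for Camk2g, and the black lines stay near 0 beside the spread of the points of Camk1g, Camk2g and Camk4.

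The genes whose signal followed each kinase most closely over the 12 arrays were sought among 12205 named genes that were well above background on all of them. Arrays of a pair shared their lot and slide, so these correlations mainly describe lots and are given as a description. Camk2g was followed by Lgi4 (r = 0.992, rho = 0.958) and Plekhd1 (r = 0.991), and over the 10 arrays without replicate 1 the values of r were 0.987 for both. Without replicate 1 the values stated next were lower too, most of all for Camkk2 (0.829 with Gpkow and 0.784 with Efha2) and Camk2d (0.895 with Pcdhb12 and 0.881 with Cngb3), while those of Camk2a were higher (0.909 and 0.890). Camk1g was followed by Ccdc97 (r = 0.981) and Lrfn4 (r = 0.979), Camk2d by Pcdhb12 (r = 0.968) and Cngb3 (r = 0.957), and Camk1 by Ubxn8 (r = 0.964) and Glmn (r = 0.951). Camk4 was followed by Itga1 (r = 0.942) and E4f1 (r = 0.929), Camk1d by Ndufa13 (r = 0.925) and Drosha (r = 0.910), and Camkk1 by Mon1a (r = 0.925) and Znhit2 (r = 0.861). For Camk2b the highest were Sobp (r = 0.877) and Prkar1b (r = 0.871), and for the dim Camkk2 Gpkow (r = 0.924) and Efha2 (r = 0.909). For Camk2a they were Ankrd13c (r = 0.889) and Vash2 (r = 0.866), where the rank correlations were only 0.280 and 0.420.

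Around the kinases, 37 genes were listed by their role, of which 36 were on the array (Hdac4 was not found by its symbol) and 35 passed the filter, the glutamate receptor gene Grin2b being too dim. With limma, 0 of 35 passed after adjustment, as for all probes (0%). At an unadjusted limma p under 0.05, 1 gene was higher and 2 were lower in ACE, against 6.9% of all probes higher and 9.73% lower (41.5% of all such calls were higher, and 19.7% with 75th percentile scaling). By the exact signed-rank test 1 was higher and 2 were lower, against 4.72% and 6.86%. The median difference over the 35 genes was 0.011 log2, against -0.0050 over all probes.

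Of the 3 calmodulin genes, which code for the calcium sensor itself, 0 passed at an unadjusted limma p under 0.05. Calm2 was lower in ACE in 6 of 6 pairs, from 16.02 ± 0.13 to 15.96 ± 0.15 log2 (SD, n = 6), which is -0.069 ± 0.029 (SE). Its unadjusted limma p was 0.0548, or 0.0445 with the replicate as a random block, and its exact signed-rank p 0.0313. It fell outside the naming rule and was named after its values were seen. Of 5 calmodulin-binding and inhibitor proteins, 1 was lower and 4 were not past the threshold. The lower gene was Pcp4, a small calmodulin-binding protein of Purkinje cells, which ranged from 8.89 to 10.29 in control (median 9.42) and from 8.86 to 10.02 in ACE (median 9.33). Its difference was -0.12 ± 0.046 log2 (SE), lower in 6 of 6 pairs by 0.013 to 0.27 log2, and limma gave an unadjusted p of 0.0363 and an adjusted p of 0.270. With the normexp background the difference was -0.072 (unadjusted limma p 0.167). The unadjusted limma p was also above 0.05 with the replicate as a random block (0.128) or without the block (0.663), with the deposited values (0.0802), within the single scan batch (0.0801) and without replicate 3, 4 or 6 (0.0871, 0.0928 and 0.100). The natural inhibitors of kinase II, Camk2n1 and Camk2n2, differed by 0.020 ± 0.044 and 0.36 ± 0.32 log2 (SE, adjusted limma p 0.836 and 0.589), and the Camk2n2 value was 0.011 with the replicate that moved it most left out.

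Of 7 other calmodulin-linked kinases and 6 phosphatases, which include the subunits of calcineurin, 0 were past the unadjusted limma threshold, with differences between -0.063 and 0.21 log2. Of 11 downstream proteins tested, 1 was lower: Hdac5, a histone deacetylase that these kinases drive out of the nucleus. It fell outside the naming rule, being lower in 5 of 6 pairs, and was named after its values were seen. Its difference was -0.19 ± 0.068 log2 (SE), and limma gave an unadjusted p of 0.0309 and an adjusted p of 0.258. The unadjusted limma p was above 0.05 without the replicate block (0.295) and without replicate 2, 4 or 5 (0.0806, 0.0694 and 0.0806). Creb1, which codes for CREB, differed by -0.024 ± 0.045 log2 (SE, adjusted limma p 0.808).

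Of the 3 postsynaptic partners tested, Dlg4 was higher in ACE. It codes for PSD-95, the scaffold of the postsynaptic density in which kinase II gathers. Its signal ranged from 5.81 to 6.39 in control (median 6.08) and from 6.08 to 6.91 in ACE (median 6.36), so the ranges overlapped while the ACE array was the higher of its pair in 6 of 6 pairs, by 0.072 to 0.56 log2. The difference was 0.33 ± 0.074 log2 (SE), and limma gave an unadjusted p of 0.00375 and an adjusted p of 0.156, beside an exact signed-rank p of 0.0313, the smallest that 6 pairs allow. It was 0.19 log2 with the normexp background (unadjusted limma p 0.00109) and between 0.28 and 0.38 with a pair left out. It did not pass the adjusted threshold under any alternative. The sum of the inhibitory neuron markers was also higher in ACE in pairs 1 to 5, and lower in pair 6. The part of these cells in the Dlg4 difference was not tested. Leaving out replicate 4 took the number of these pathway genes under the unadjusted threshold from 3 to 1, which was Dlg4.

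**Figure D4:**
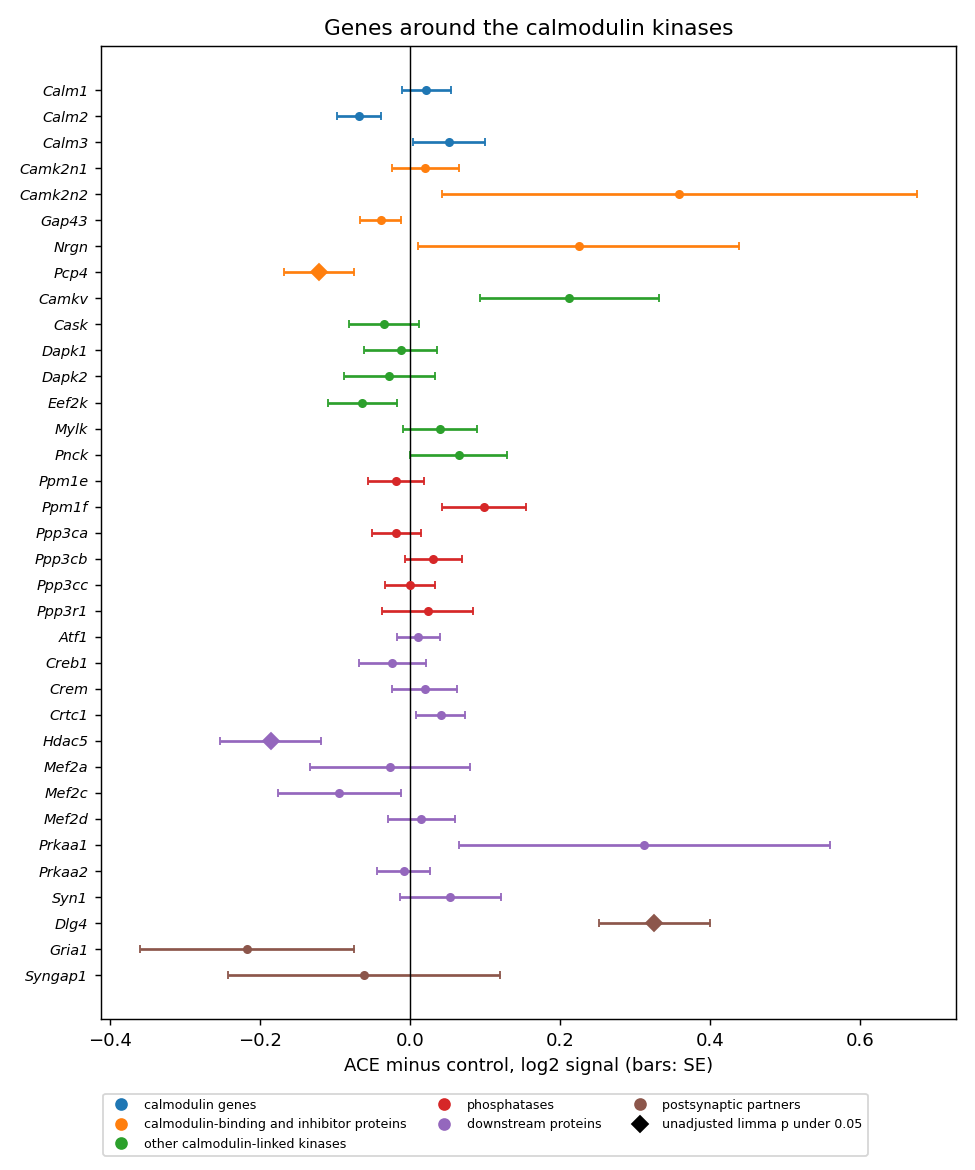
Difference between ACE and control (x axis, log2 signal, points with bars of 1 SE) for the 35 tested genes around the kinases, coloured by role. Diamonds mark the 3 genes with an unadjusted limma p under 0.05, Dlg4 on the right and Pcp4 and Hdac5 on the left, none of which was past the adjusted threshold.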

How the data were processed

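RNA of 12 cultures was hybridised on single-dye (Cy3) Agilent arrays. The deposited intensity values were made by Feature Extraction, per the file headers version 11.0.1.1 for replicate 1 and 11.5.1.1 for the other 10 arrays, with the background subtracted and no scaling between arrays. A log2 table deposited by the authors was made in GeneSpring. It followed the values used here, centred per gene, with r from 0.997 to 0.999 per array, and served as an alternative.

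Control spots were dropped. The processed intensity of the remaining 42877 spots was taken to log2, quantile normalised and averaged per probe. Of 30367 probes, 23796 above the 20th percentile on at least 7 arrays and with at least 4 complete pairs were kept, and 447 missing values stayed missing, so 23580 probes had all 6 pairs. limma 3.58.1 in R 4.3.3 was fitted with the replicate number as a block, and p-values were adjusted by Benjamini-Hochberg over all kept probes at 0.05. The test of the study's methods was run as an exact two-sided paired signed-rank test, whose smallest p with 6 pairs is 0.0313. Fits were tested on simulated data. The methods state that all groups of an experiment shared a lot of cells. That the replicate number in the sample titles marks this lot was inferred. Deviations of arrays with the same number correlated at 0.434 to 0.909, and those of other arrays at -0.433 to 0.385. The p-values of the paired CvA tests set the difference within pairs against how it varied from pair to pair. The spread of signal between the lots is taken out by the pairing.

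All 10 kinases were named. The main probe of a gene is that with the highest mean signal. A pathway gene was named where its main probe had an unadjusted limma p under 0.05 and 1 direction in all 6 pairs, and like genes were the 2 with the highest r to each kinase. The members and lists were chosen with earlier results of these data known. Alternatives were another scaling, background correction or filter, other treatments of the replicate, averaged probes, the deposited values, 1 batch of scans, and leaving out each replicate. Saturated spots numbered 0, the number of arrays limits the precision, and no comparison columns of the authors were used. Probe positions come from the array annotation on rn4.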

Additional observations from a re-analysis of the deposited data

Results flagged for a closer look

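Of 28 groups of 6 arrays, 2 held a single value set apart from the other 5, where chance alone gives about 5% of groups. Camk2a in control replicate 3 was at 6.50 log2, against 5.06 for the next and 4.54 for the lowest control array, and 4.83 for the ACE array of its pair. Camkk2 in ACE replicate 1 was at 2.997 log2, against 3.97 for the next and 4.40 for the highest ACE array, and 2.98 for the control array of its pair.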

How the results depend on the processing

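The count of kinase probes past the adjusted limma threshold was 0 under every alternative run, and the lowest adjusted p of a kinase where single probes were fitted was 0.288 (Camk1d, without replicate 3). Over all probes the count past the threshold was 0, except 5 with the replicate as a random block (where Calm2 in place of Pcp4 was among the 3 pathway genes under an unadjusted p of 0.05), and 2755 had an unadjusted exact signed-rank p under 0.05. Without the replicate block, 0 of the 35 pathway genes had an unadjusted limma p under 0.05, where 3 did with the block, and 81 of all probes did. This block changed no other call on the kinases. With 1 replicate left out, the pathway count ranged from 1 to 3, the lowest being without replicate 4.

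Within the 3 pairs of 1 scan batch, 1 kinase probe had an unadjusted limma p under 0.05, that of Camk2a (difference 0.39 log2), and the sign turned for Camkk2 (-0.094), Camkk1 (-0.060), Camk2g (0.057) and the other Camk1g probe (-0.11). With 75th percentile scaling it turned for Camkk1 (-0.027), the other Camk1g probe (-0.060) and the main Camk2d probe (-0.00091), and the share of unadjusted calls that were higher in ACE was 19.7% against 41.5%. With normexp it turned for Camkk1 (-0.014), the main Camk1g probe (0.013) and Creb1 (0.010), and with the deposited values for Camk2g (0.010) and the main Camk1g probe (0.0072), and calls were then 51.5% higher. With 1 replicate left out, differences ranged from -0.25 to 0.20 for Camk2a, -0.013 to 0.040 for Camkk1, -0.20 to 0.017 for Camk4, -0.044 to 0.016 for the other Camk2b probe, -0.024 to 0.012 for Camk2g, -0.054 to 0.0063 for the other Camk2d probe, -0.032 to 0.053 for the other and -0.059 to 0.052 for the main Camk1g probe, and -0.014 to 0.043 for Camk2n1. The cause was not tested. The other kinase probes, and Dlg4, Pcp4, Hdac5, Calm2 and Camk2n2, kept their sign under the alternatives run. Signs of the pathway genes not named here were not compared. The signed-rank test cannot pass with 5 pairs (smallest exact p 0.0625) or 3 (0.25), so those counts say nothing about stability. Signal near background limits Camk2a, Camkk2 and the second Camkk1 probe.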
